A study of Mus musculus with 10 samples.

Results

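The collagen genes were taken as every row of the count table whose symbol reads Col, a number, a and a number, such as *Col1a1*, and 44 of the 24452 named genes met this rule. *Col4a3bp*, whose symbol continues after that pattern and whose product is a lipid transfer protein, was left out by it. RNA had been sequenced from full-thickness back skin, treated but free of tumor, of 5 WT and 5 *Zfp36*ΔARE mice (KI in the library names), with 1 library per mouse. *Zfp36* encodes TTP, an RNA-binding protein that recognizes AU-rich elements and promotes decay of the mRNAs that carry them. *Zfp36*ΔARE mice lack an AU-rich instability motif in the 3′-UTR of the endogenous *Zfp36* gene in every tissue, and WT littermates served as controls, all on a C57BL/6 background. All the mice were 7 weeks old at the start and received the same 2-stage carcinogenesis treatment, namely a single dose of 400 nmol of the mutagen DMBA on the shaved back, followed by 10 nmol of the tumor promoter TPA 2 times per week for 20 weeks. No untreated skin was analysed here, so each difference is between genotypes within treated skin.

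Collagens are proteins whose chains wind into triple helices built of Gly-X-Y repeats, and they fall into classes by the structures they form. Fibrillar collagens make the fibers of the dermis, with types I and III as the bulk and type V inside the fibril, where it limits fibril width. Type IV forms the network of basement membranes, type VI forms beaded filaments around cells, FACIT collagens sit on the surface of fibrils, and type VII and the transmembrane type XVII anchor the epidermis to the dermis. In skin most fibrillar, type VI and FACIT transcripts come from fibroblasts, type IV also from vessels, and type XVII from basal keratinocytes.

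Total counts ranged from 21638369 to 32583189 in WT and from 19595024 to 36419553 in *Zfp36*ΔARE libraries. *Zfp36* itself, the targeted gene, lay between 1824 and 2496 normalized counts in WT and between 4196 and 6134 in *Zfp36*ΔARE skin (log2 fold change 1.33, SE 0.12, adjusted p = 0.0019). Here a normalized count is a count scaled with edgeR's TMM factors to the mean library size. Hair shaft keratins differed widely, with summed levels of 776 normalized counts in WT replicate 3, 7319 in WT replicate 1, 65902 to 87733 in the other 3 WT libraries and 132407 to 425319 in *Zfp36*ΔARE skin. Transcripts of Y-linked genes had 3349 to 4262 counts in *Zfp36*ΔARE replicates 2 to 5 and at most 1 in the remaining 6 libraries. *Xist* had the opposite pattern, with 4 to 15 counts in those 4 libraries and 14829 to 28087 in the others. *Zfp36*ΔARE replicate 1 is the only knock-in library like WT in this respect, so apart from it the genotype and the Y-linked transcripts cannot be told apart, and its value is given beside the main results.

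Lower expression was the prevailing change among collagens in *Zfp36*ΔARE skin. Of the 44 genes, 41 had enough counts to be tested, and with edgeR's quasi-likelihood test, adjusted over all 15543 genes tested, 15 were lower, 1 was higher and 25 were not called at an adjusted p below 0.05. Over all tested genes 19.1% were lower and 15.3% higher by the same rule. A fold change over 2 was reached by 6 of the lower collagens (*Col5a1*, *Col5a3*, *Col6a1*, *Col6a2*, *Col6a3* and *Col25a1*) and by 0 of the higher, against 6.64% and 1.67% of all genes. In 11 collagens every *Zfp36*ΔARE library lay below every WT library, and in 0 did every one lie above, against 11.9% and 11.2% of all genes. The estimated log2 fold change was negative in 29 and positive in 12 of the 41, with a median of -0.36, while the median over all genes was 0.0076. The 3 genes that were not tested, *Col9a1*, *Col9a2* and *Col19a1*, had 25, 70 and 25 counts in total over the 10 libraries. These are bulk measurements, in which fewer cells of a type and less RNA per cell cannot be told apart.

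**Figure D1:**
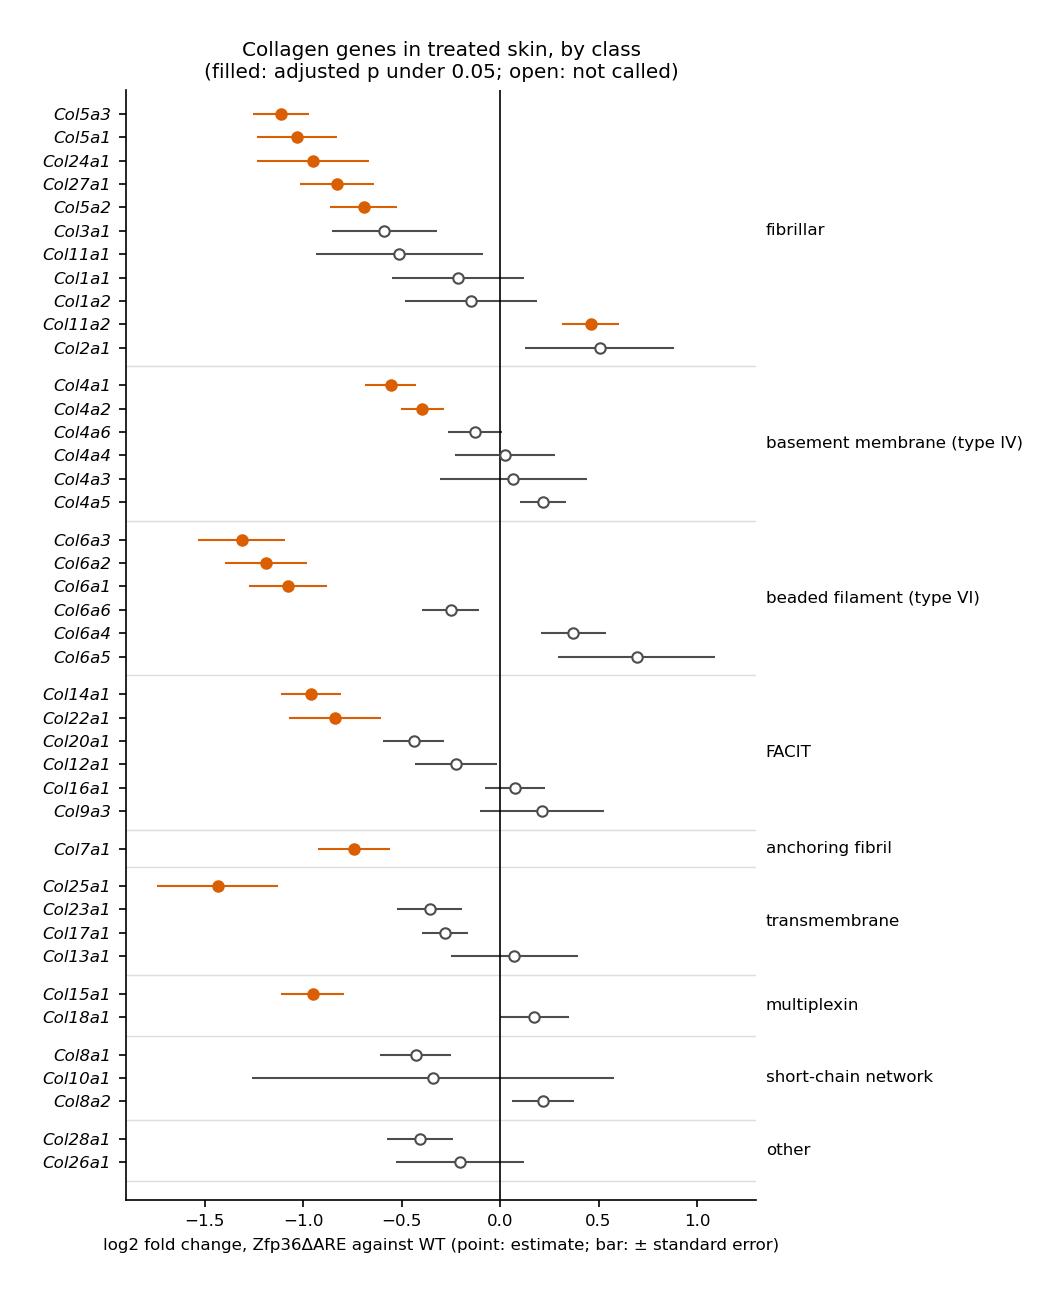
Log2 fold change of each of the 41 tested collagen genes in *Zfp36*ΔARE against WT skin (horizontal axis, with standard errors), grouped by class, with filled points for an adjusted p below 0.05. Filled points to the left of 0 number 15 and include the 3 chains of type V and *Col6a1*, *Col6a2* and *Col6a3*, whereas *Col1a1* and *Col1a2* lie near 0 with wide bars.

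Markers of several cell types of skin, some of which supply collagen, were lower as well, against 19.1% of all genes. Those of basal keratinocytes are given with *Col17a1* below. Fibroblast markers were lower in 8 of 10 and higher in 0, with summed levels of 25720 to 40282 normalized counts in WT and 15866 to 19270 in *Zfp36*ΔARE skin, and *Pdgfra* (log2 fold change -0.88) and *Dpt* (-1.28) were among the lower. Endothelial markers were lower in 8 of 8, summing to 4698 to 10471 in WT and 2860 to 3750 in *Zfp36*ΔARE skin, with log2 fold changes of -1.09 for *Pecam1* and -0.92 for *Cdh5*. Adipocyte markers were lower in 6 of 8 (44415 to 93512 against 30494 to 41529, log2 fold change -1.28 for *Adipoq* and -1.31 for *Plin1*) and macrophage markers in 8 of 8 (14400 to 29666 against 6924 to 11157, -1.50 for *Csf1r* and -1.25 for *Adgre1*). The summed ranges of fibroblast, endothelial, adipocyte and macrophage markers did not overlap between the groups. The part of these cell types in the collagen result was not tested.

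Because TTP acts through AU-rich sequences, the 3′-UTRs of the collagens were searched on the transcript strand for TATTTAT, the heptamer at the heart of the nonamer that TTP prefers, in 1 annotated protein-coding transcript per gene (GENCODE vM21, GRCm38, the same assembly as mm10). Of 40 tested collagens with an annotated 3′-UTR, 10 held the heptamer (25.0%), against 27.8% of 14302 tested genes. Among the 15 lower collagens 2 held it (13.3%), and among the 25 others 8 did (32%). The median 3′-UTR was 877 bases long in the 15 and 1110 in the 25, with 0.23 and 0.33 heptamers per kilobase. The longer form TTATTTATT, which always includes the heptamer, was found in 0 of the 15 and in 5 of the 25, against 7.25% of all tested genes. The lower genes with the heptamer were *Col5a2* and *Col24a1*, with 2 copies each. Their sites are printed below, beside those of *Col3a1* and *Col12a1*, abundant dermal collagens that were not called, with the heptamer in capitals, 7 flanking bases on each side and the strand of the gene.
*Col5a2*, first copy, chr1:45375912-45375932, minus strand: ttcagaaTATTTATtttactt
*Col5a2*, other copy, chr1:45375746-45375766, minus strand: tgcttagTATTTATgagaaaa
*Col24a1*, first copy, chr3:145551364-145551384, plus strand: gtaaagtTATTTATgcaaggt
*Col24a1*, other copy, chr3:145551688-145551708, plus strand: agtgttaTATTTATgctttta
*Col3a1*, chr1:45348840-45348860, plus strand: ttccagtTATTTATttccaaa
*Col12a1*, first copy, chr9:79600109-79600129, minus strand: atgcatcTATTTATggttgtg
*Col12a1*, other copy, chr9:79599031-79599051, minus strand: cttatatTATTTATttctgaa
The *Col3a1* site lies 100 bases into its 3′-UTR of 959 bases and carries the longer form, and the same form is found in the *Col12a1* site nearer the end of its 3′-UTR. The 13 other lower collagens, among them the 3 main chains of type VI, had 0 copies in the transcripts searched. Some of these 3′-UTRs were short, at 30 bases in *Col25a1* and 191 in *Col14a1*. These matches describe the sequence, and binding was not measured here.

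Types I and III, the most abundant collagens of these libraries, were not called. *Col1a1*, which encodes the chain present in 2 copies per type I molecule, had 79396, 43746, 66929, 34201 and 62057 normalized counts in WT replicates 1 to 5, and 17799, 65149, 48941, 48891 and 66028 in *Zfp36*ΔARE replicates 1 to 5. The groups overlapped, and *Zfp36*ΔARE replicate 1 was the lowest of all 10 libraries. The log2 fold change was -0.21 (SE 0.34, adjusted p = 0.64). *Col1a2*, the partner chain, was lowest in the same library, with 95170.5, 56280.3, 80852, 41284 and 71732 in WT, 22392, 80273, 59659.7, 62876 and 86756 in *Zfp36*ΔARE skin and a log2 fold change of -0.15 (SE 0.33, adjusted p = 0.75). Without *Zfp36*ΔARE replicate 1 the sign of *Col1a2* turned, at a log2 fold change of 0.07, and that of *Col1a1* was -0.0037. *Col3a1*, whose product forms thin fibers with type I, had 127174, 85164, 119991, 58309 and 85913 normalized counts in WT and 33769.9, 63814, 57707, 79142 and 82586 in *Zfp36*ΔARE skin. Its groups overlapped as well, with a log2 fold change of -0.59 (SE 0.27, adjusted p = 0.11).

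**Figure D2:**
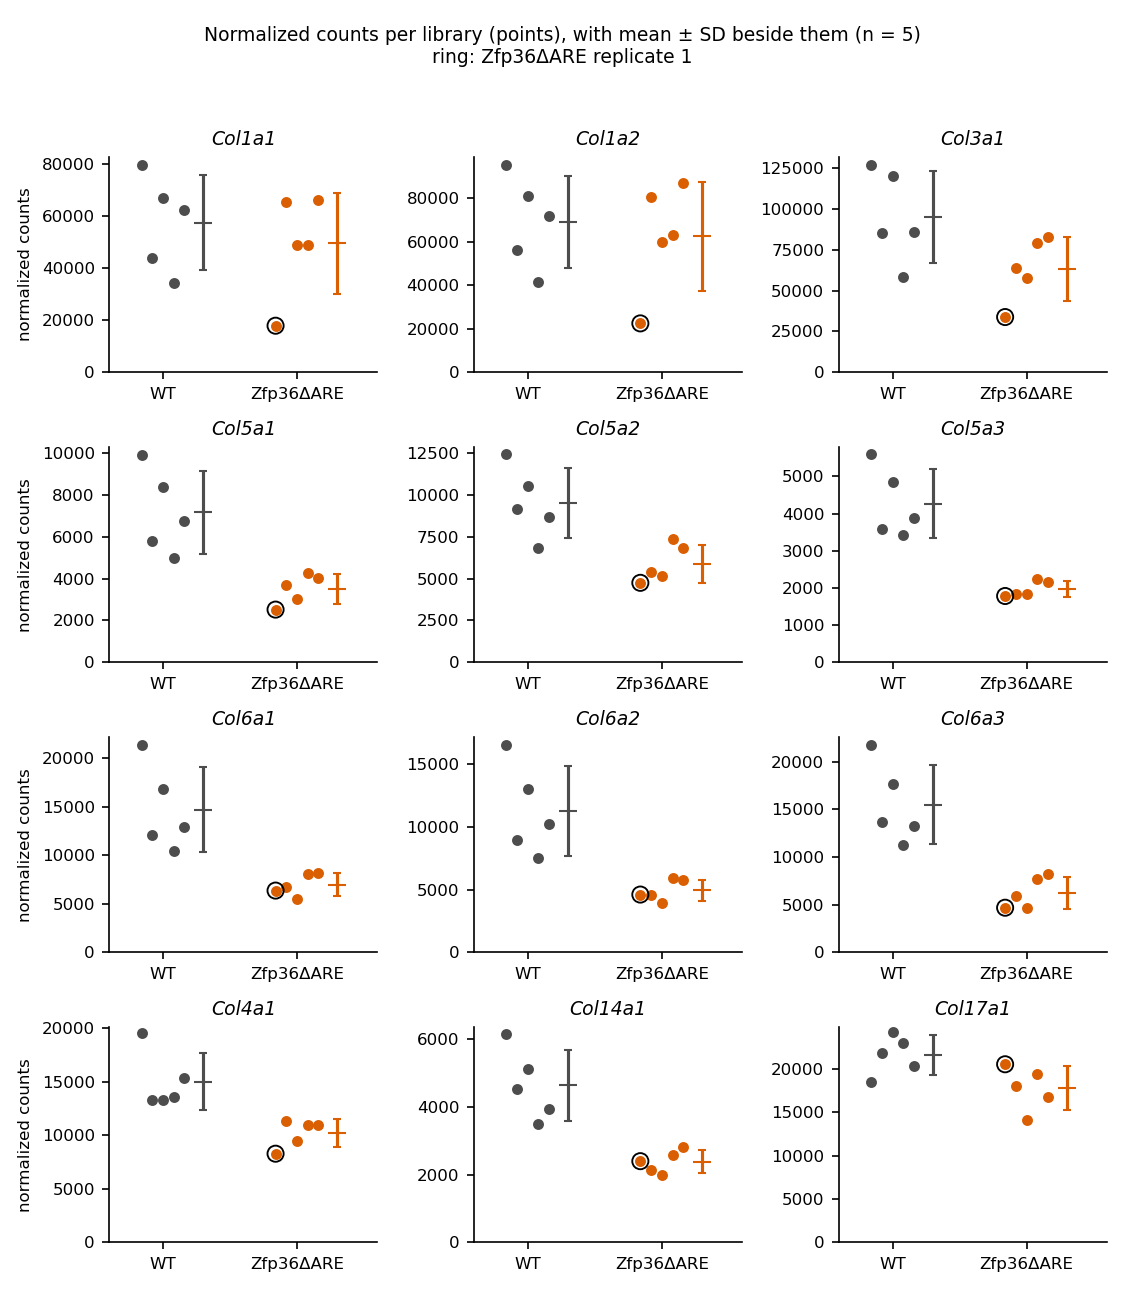
Normalized counts of 12 collagen genes in each library (vertical axes start at 0), for WT in grey and *Zfp36*ΔARE in orange, with the mean and SD of 5 libraries beside the points and a ring around *Zfp36*ΔARE replicate 1. The ringed library is the lowest of all for *Col1a1* (17799), *Col1a2* and *Col3a1*, while in *Col6a3* all 5 *Zfp36*ΔARE libraries, from 4672 to 8265, lie below the WT range that starts at 11223.

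All 3 chains of type V, the minor fibrillar collagen that co-assembles with type I, were lower. *Col5a1* (chromosome 2, 27886425 to 28039514) had 9925, 5799, 8367, 4994 and 6765 normalized counts in WT and 2519, 3676, 3032, 4293 and 4021 in *Zfp36*ΔARE skin, so that the ranges did not overlap. That is 2.04-fold lower in *Zfp36*ΔARE skin, a log2 fold change of -1.03 (SE 0.20, adjusted p = 0.0078). *Col5a3* (chromosome 9, 20770050 to 20815067) had the smallest adjusted p of all collagens. Its values were 5597, 3594, 4865, 3418 and 3884 in WT and 1783, 1836, 1842, 2252 and 2163 in *Zfp36*ΔARE skin, 2.16-fold lower (log2 fold change -1.11, SE 0.14, adjusted p = 0.0037). *Col5a2* was lower by less, at a log2 fold change of -0.69 (SE 0.17, adjusted p = 0.015), and its highest *Zfp36*ΔARE value, 7358, lay above the lowest WT value, 6845.

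The rest of the fibrillar class was expressed at far lower levels and was divided in direction. *Col27a1* and *Col24a1*, fibrillar genes with shorter uninterrupted helices that are best known from cartilage and bone, were lower, with log2 fold changes of -0.83 (SE 0.19, adjusted p = 0.011) and -0.95 (SE 0.28, adjusted p = 0.028). *Col11a2*, a chain of the type XI fibril core, was the only collagen called higher. It had 146, 109, 116, 118 and 125 normalized counts in WT and 164, 211, 153, 186 and 131 in *Zfp36*ΔARE skin, a log2 fold change of 0.46 (SE 0.15, adjusted p = 0.034), and the lowest *Zfp36*ΔARE value lay within the WT range. This call was lost in 8 of the 10 fits that left out 1 library, with adjusted p up to 0.083, and that of *Col24a1* in 5, up to 0.067. *Col11a1*, its partner, ranged from 849 to 2966 in WT and from 630 to 2043 in *Zfp36*ΔARE skin and was not called (log2 fold change -0.51, adjusted p = 0.36). *Col2a1*, the cartilage fibrillar collagen, was close to the lower limit of detection, with 12.9, 11.3, 12.2, 5.82 and 20.6 normalized counts in WT and 20.2, 7.24, 26.4, 18.7 and 17.1 in *Zfp36*ΔARE skin (log2 fold change 0.51, adjusted p = 0.31). Of the defining cartilage markers, *Matn1* had 0 counts in all libraries and *Acan* was lower (log2 fold change -1.16, adjusted p = 0.027), and the 6 markers together summed to 334 to 674 normalized counts in WT and 166 to 302 in *Zfp36*ΔARE skin.

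In type VI, the 3 chains that make up its classical heterotrimer were each lower by over 2-fold. *Col6a3* (chromosome 1, 90765923 to 90843971), the longest chain, had 21723, 13634, 17705, 11223 and 13311 normalized counts in WT and 4683, 5933, 4672, 7676 and 8265 in *Zfp36*ΔARE skin. Every *Zfp36*ΔARE library was below every WT library, at 2.48-fold lower (log2 fold change -1.31, SE 0.22, adjusted p = 0.0053). *Col6a1* and *Col6a2* encode the other 2 chains and lie next to each other on chromosome 10, from 76708792 to 76726168 and from 76595762 to 76623630, on the same strand. *Col6a1* had 21368, 12097, 16799, 10405 and 12919.7 in WT and 6362, 6711, 5520.2, 8075 and 8209 in *Zfp36*ΔARE skin, 2.11-fold lower (log2 fold change -1.08, SE 0.20, adjusted p = 0.0067). *Col6a2* had 16496, 8984, 13039, 7543 and 10211 in WT and 4600.2, 4544, 3892, 5899 and 5739 in *Zfp36*ΔARE skin, 2.28-fold lower (log2 fold change -1.19, SE 0.21, adjusted p = 0.0060). In all 3 chains WT replicates 1 and 3 were the highest libraries, and *Zfp36*ΔARE replicate 3 was the lowest.

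The alternative chains of type VI, encoded side by side on chromosome 9 and able to stand in for the *Col6a3* chain, did not pass the test. *Col6a5*, known from the upper dermis of human skin, had 122, 127, 174, 111 and 175 normalized counts in WT and 529, 141, 107, 200.3 and 161 in *Zfp36*ΔARE skin. The high estimate (log2 fold change 0.69, SE 0.40, adjusted p = 0.19) came with a single high library, *Zfp36*ΔARE replicate 1. *Col6a4* had a log2 fold change of 0.37 (adjusted p = 0.10) and *Col6a6* one of -0.25 (adjusted p = 0.20). Summed over these 3 genes the level ran from 576 to 858 normalized counts in WT and from 555 to 936 in *Zfp36*ΔARE skin, against 29171 to 59587 and 14084 to 22212 for the 3 classical chains.

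In basement membranes the 2 ubiquitous chains of type IV were lower, by less than 2-fold, and the 4 restricted chains were not called. *Col4a1* had 19489.6, 13322, 13282, 13519.6 and 15289 normalized counts in WT and 8273, 11306, 9460.3, 10982 and 10953 in *Zfp36*ΔARE skin, with no overlap between the groups. Its log2 fold change was -0.56 (SE 0.13, adjusted p = 0.013). *Col4a2* had 10883, 8573, 7475, 8252 and 8922 in WT and 5822, 7252, 6422, 7466 and 6591 in *Zfp36*ΔARE skin, also without overlap (log2 fold change -0.39, SE 0.11, adjusted p = 0.020). In the second gene the gap was narrow, 7466 against 7475 normalized counts.

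These 2 genes are transcribed in opposite directions from a shared promoter on chromosome 8, and their annotated first exons overlap by 22 bases at chr8:11312805-11312826. The overlap is shown here on the strand of *Col4a2*, with a GC box core in capitals, because reads in it could belong to either gene where counting ignores strand.
*Col4a1* and *Col4a2*, shared first exon bases: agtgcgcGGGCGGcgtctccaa
The other 2 pairs of type IV genes are arranged in the same way, *Col4a3* and *Col4a4* 72 bases apart on chromosome 1 and *Col4a5* and *Col4a6* 1343 bases apart on chromosome X. *Col4a5*, found in the epidermal basement membrane with *Col4a6*, had 775, 943, 703, 876 and 869 normalized counts in WT and 1188, 939, 1018, 943 and 757 in *Zfp36*ΔARE skin (log2 fold change 0.22, SE 0.12, adjusted p = 0.17). The groups overlapped, and *Zfp36*ΔARE replicate 1 was the highest. *Col4a6* (log2 fold change -0.13, adjusted p = 0.48), *Col4a3* (0.07, adjusted p = 0.90) and *Col4a4* (0.02, adjusted p = 0.95) were not called.

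Of the FACIT collagens, which link fibrils to their surroundings, *Col14a1* was called lower and the 2 other abundant members were not called. *Col14a1* (chromosome 15, 55307750 to 55520803), a fibril-surface collagen that regulates fibril growth, had 6133, 4523, 5107, 3483 and 3921 normalized counts in WT and 2396, 2125, 1985, 2572 and 2827 in *Zfp36*ΔARE skin. It was 1.95-fold lower without overlap (log2 fold change -0.96, SE 0.15, adjusted p = 0.0052). *Col12a1*, the closest relative of *Col14a1*, had 7134, 8443, 3730.2, 6591 and 6813 in WT and 6811, 4947, 4363, 7062 and 4833 in *Zfp36*ΔARE skin, with overlapping groups (log2 fold change -0.22, SE 0.21, adjusted p = 0.42). WT replicate 3 was the lowest library for *Col12a1* although it was among the highest for *Col14a1*. *Col16a1*, which is made by keratinocytes as well as fibroblasts, had 5153, 6032, 3563, 5319.5 and 5448 in WT and 6586, 5246, 4703, 6020.2 and 4296 in *Zfp36*ΔARE skin (log2 fold change 0.07, SE 0.15, adjusted p = 0.72), and here too WT replicate 3 was lowest.

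Rarer FACIT genes added 1 further decrease. *Col22a1*, a collagen of muscle and tissue junctions, was lower with a log2 fold change of -0.84 (SE 0.23, adjusted p = 0.022), on 22.6 to 40.3 normalized counts in WT and 12.0 to 22.0 in *Zfp36*ΔARE skin. It had only 250 counts over the 10 libraries, and without WT replicate 1 its adjusted p was 0.052. Skeletal muscle markers moved with it, 9 of 10 being lower, against 19.1% of all genes. Their summed levels were 207420 to 1031850 in WT and 119986 to 270115 in *Zfp36*ΔARE skin. The part of muscle in the *Col22a1* result was not tested. *Col20a1* had an adjusted p of 0.0503 by edgeR (log2 fold change -0.44) and 0.029 by DESeq2, and *Col9a3* was not called (0.21, adjusted p = 0.61).

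At the junction of epidermis and dermis, *Col7a1* and *Col17a1* differed in their calls. *Col7a1*, the anchoring fibril collagen, had 4731, 3998, 5589, 3571 and 4177 normalized counts in WT and 2149, 2382, 2025, 3857 and 2786 in *Zfp36*ΔARE skin, and was lower (log2 fold change -0.74, SE 0.18, adjusted p = 0.015). Only *Zfp36*ΔARE replicate 4, at 3857, reached the WT range. *Col17a1*, a hemidesmosomal collagen of basal keratinocytes, had 18447, 21804, 24237, 22987 and 20299 in WT and 20503, 18055, 14066, 19397 and 16719 in *Zfp36*ΔARE skin, a log2 fold change of -0.28 (SE 0.12, adjusted p = 0.081). By the DESeq2 test its adjusted p was 0.043. The other markers of basal keratinocytes had negative estimates in 7 of 7 (median log2 fold change -0.17). Of these, 3 were called lower (*Itga6*, *Itgb4* and *Dst*), against 19.1% of all genes. *Krt5* (-0.07) and *Krt14* (-0.14) were not called. The summed levels overlapped, at 209994 to 324763 in WT and 179440 to 345707 in *Zfp36*ΔARE skin.

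Among the remaining transmembrane collagens, *Col25a1* had the largest fold change of any collagen and one of the smallest counts. It had 19.3, 18.6, 9.76, 21.4 and 17.5 normalized counts in WT and 6.74, 6.34, 4.39, 4.01 and 10.5 in *Zfp36*ΔARE skin, 2.70-fold lower (log2 fold change -1.43, SE 0.31, adjusted p = 0.0095). This neuronal and muscle collagen rested on 122 counts over the 10 libraries, and WT replicate 3 lay within the *Zfp36*ΔARE range. *Col23a1*, a transmembrane collagen found in epidermis, had 903, 717, 1001, 802 and 793 in WT and 456, 763, 562, 636 and 878 in *Zfp36*ΔARE skin (log2 fold change -0.36, SE 0.17, adjusted p = 0.11). *Col13a1*, a transmembrane collagen of cell adhesion sites, had 69.1, 85.6, 101, 101 and 82.5 and 155, 87.8, 80.2, 103 and 31.6 (log2 fold change 0.07, adjusted p = 0.87). Its *Zfp36*ΔARE libraries spread more widely than the WT ones, from 31.6 in replicate 5 to 155 in replicate 1.

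The 2 multiplexins, basement membrane collagens that carry endostatin-like domains, were called differently. *Col15a1*, which lines vessels, nerves and muscle, had 6702, 3999.9, 5857, 3991 and 5228 normalized counts in WT and 2034, 2873, 2669.5, 2749 and 3010.4 in *Zfp36*ΔARE skin. The groups did not overlap, and it was 1.93-fold lower (log2 fold change -0.95, SE 0.16, adjusted p = 0.0054). *Col18a1*, which is also part of the epidermal and vascular basement membranes, had 5109.6, 7025, 3724, 6715 and 5774 in WT and 7564, 6010.3, 6167, 7375 and 4879 in *Zfp36*ΔARE skin, with overlap (log2 fold change 0.17, SE 0.18, adjusted p = 0.45). The lowest of its WT values was in replicate 3, which was among the highest for *Col15a1*.

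None of the 3 short-chain collagens or the 2 unclassified ones passed the edgeR test. *Col8a1* and *Col28a1* had an unadjusted p below 0.05 by that test, a rule for which the share of all genes was not counted. *Col8a1*, a vascular and subendothelial network collagen, had 243, 260.1, 231, 165 and 198 normalized counts in WT and 164, 110.4, 150.4, 208 and 185 in *Zfp36*ΔARE skin (log2 fold change -0.43, SE 0.18, adjusted p = 0.087). Its partner *Col8a2* had 239, 291, 162, 269 and 323 in WT and 305, 295, 311, 287 and 297 in *Zfp36*ΔARE skin (log2 fold change 0.22, SE 0.16, adjusted p = 0.29). *Col10a1*, the collagen of hypertrophic cartilage, was the most variable member, with 103, 127, 172, 71.8 and 99.0 in WT but 30.7, 0.905, 5.49, 167 and 259.8 in *Zfp36*ΔARE skin (log2 fold change -0.34, SE 0.92). Its exons overlap those of *Nt5dc1* on the opposite strand, and *Nt5dc1* itself lay between 437 and 549 in WT and between 471 and 525 in *Zfp36*ΔARE skin. *Col28a1*, found around Schwann cells, had 173, 143, 113, 146 and 196 in WT and 140.1, 127, 96.6, 101 and 116 in *Zfp36*ΔARE skin (log2 fold change -0.41, adjusted p = 0.080). *Col26a1* had 27.6, 10.5, 18.3, 17.5 and 35.1 normalized counts in WT and 15.0, 16.3, 26.4, 20.0 and 17.1 in *Zfp36*ΔARE skin (log2 fold change -0.20, adjusted p = 0.64).

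By class, and against 19.1% lower over all genes, lower genes numbered 5 of 11 fibrillar genes (median log2 fold change -0.59), 2 of 6 type IV genes (-0.05), 3 of 6 type VI genes (-0.66), 2 of 6 tested FACIT genes (-0.33) and 3 of the 12 tested genes outside these classes (-0.35). Exons of 10 collagens overlap genes annotated on the opposite strand, among the lower ones *Col4a1* and *Col4a2* with each other and *Col5a1*, *Col15a1* and *Col22a1* with genes known only by clone or model names, and how the counting treated strand is not given in the sources used here. Within each of the 4 named classes some members were called and others were not. In type IV and type VI the called members were the abundant chains. In the fibrillar class the 3 most abundant chains were not called. The classes differ in protein design, and the longest uninterrupted run of Gly-X-Y codons was 337 to 344 repeats in the classical fibrillar genes, 216 and 217 in *Col24a1* and *Col27a1*, 39 to 66 in type IV genes, 37 to 87 in type VI genes and 32 in *Col12a1* and *Col14a1*.

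Ratios of 2 collagens within a library do not depend on library size, and 17 such pairs were compared between the genotypes by exact two-sided permutation tests, adjusted by Benjamini-Hochberg over the 17. None passed an adjusted p of 0.05, and 9 had an unadjusted p below 0.05. With 5 mice against 5 the smallest exact p is 0.0079, reached by *Col6a3* over *Col6a1* and by *Col4a6* over *Col4a5* (adjusted p = 0.054 for both, exact permutation test). The log2 ratio of *Col6a3* to *Col6a1* was 0.085 ± 0.059 over the 5 WT mice and -0.18 ± 0.17 over the 5 *Zfp36*ΔARE mice (SD), with no overlap. That of *Col4a6* to *Col4a5* was -0.32 ± 0.20 in WT and -0.67 ± 0.044 in *Zfp36*ΔARE mice (SD). The ratio of *Col5a2* to *Col5a1* differed by 0.33 on the log2 scale, that of *Col4a5* to *Col4a1* by 0.76 and that of *Col6a2* to *Col6a1* by -0.11, each with an exact permutation p of 0.016 and an adjusted p of 0.054. *Col18a1* over *Col15a1* differed by 1.13 (exact permutation p = 0.024, adjusted p = 0.067) and *Col12a1* over *Col14a1* by 0.74 (p = 0.032, adjusted p = 0.075, same test). The log2 ratio of *Col1a2* to *Col1a1*, the type I chains, was 0.28 ± 0.056 for WT and 0.33 ± 0.044 for the knock-in mice (SD, n = 5, exact permutation p = 0.10).

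Relative to *Col1a1*, *Col6a1* and *Col14a1* were split by *Zfp36*ΔARE replicate 1. The log2 ratio of *Col6a1* to *Col1a1* was -1.89, -1.85, -1.99, -1.72 and -2.26 in WT replicates 1 to 5 and -1.48, -3.28, -3.15, -2.60 and -3.01 in *Zfp36*ΔARE replicates 1 to 5. Replicate 1 was thus above every WT library and replicates 2 to 5 were below every one. The same arrangement held for *Col14a1* over *Col1a1*, at -2.89 in replicate 1 and -4.94 to -4.25 in replicates 2 to 5, against -3.98 to -3.27 in WT. Over all 5 mice the difference was -0.76 for *Col6a1* (exact permutation p = 0.071, adjusted p = 0.10) and -0.66 for *Col14a1* (p = 0.12, adjusted p = 0.14, same test). Without replicate 1 the differences were -1.06 and -0.997, with adjusted p = 0.034 in both (exact permutation test over 4 and 5 mice). The 4 knock-in mice left are those with high Y-linked counts, so genotype and Y-linked transcripts cannot be told apart there. For *Col5a1* over *Col1a1* the difference was -0.73 (exact permutation p = 0.040, adjusted p = 0.075), for *Col4a1* over *Col1a1* -0.26 (p = 0.44) and for *Col17a1* over *Col1a1* within 0.01 of 0 (p = 1.0).

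**Figure D3:**
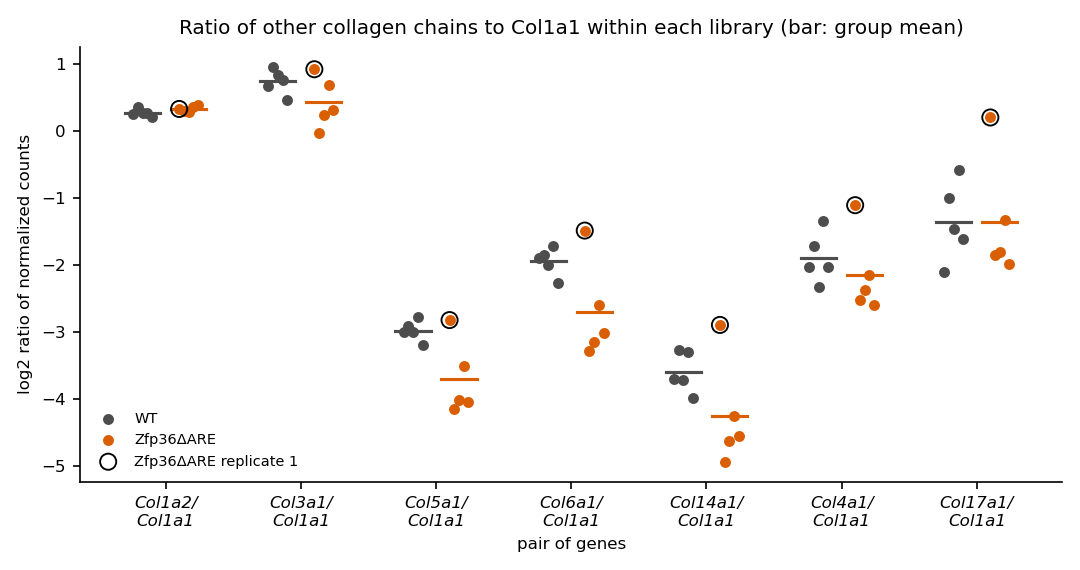
Log2 ratio of the normalized counts of 7 collagens to *Col1a1* in each library (vertical axis), for WT in grey and *Zfp36*ΔARE in orange, with bars at the group means and a ring around *Zfp36*ΔARE replicate 1. For *Col6a1* the ringed library lies at -1.48, above all WT libraries, while the other 4 lie from -3.28 to -2.60, below all of them.

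*Zfp36*ΔARE replicate 1 was also examined alone, since it is the only knock-in library without Y-linked counts. It was below every WT library in 23 of the 41 tested collagens (56.1%), against 30.4% of all tested genes. Among the 23 were all 15 lower collagens, which were called with this library in the fit, and 11 of which have every knock-in library below WT. The fit without this library called 14 collagens lower, with *Col24a1* lost, and 4048 of 15646 genes in either direction. A fit with Y-linked counts as a covariate left 0 collagens called, and 0 genes of any kind. In that fit the median log2 fold change of the 15 was -1.26, against -0.95 without the covariate. That fit rests the genotype on the single knock-in library that lacks Y-linked counts.

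**Figure D4:**
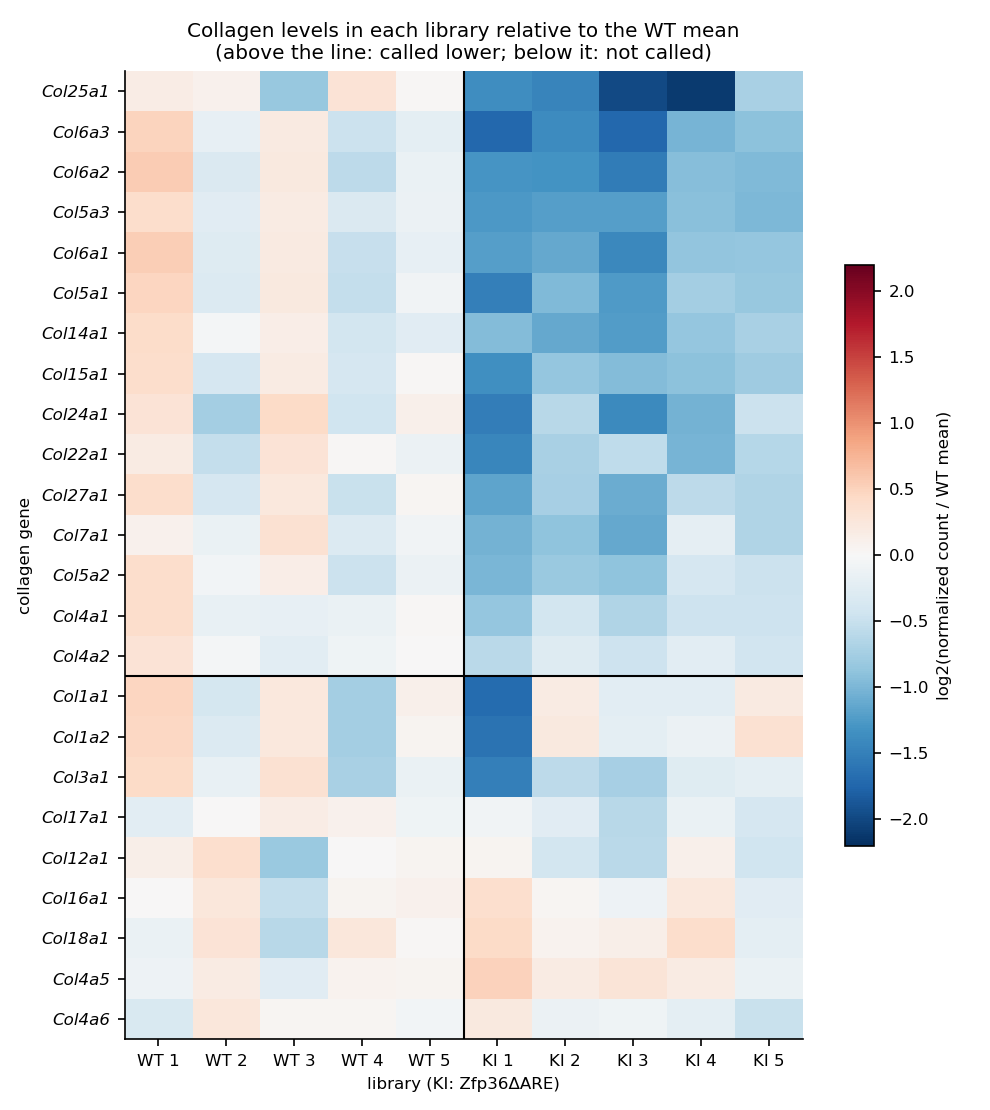
Log2 of each library's normalized count over the WT mean (color) for the 15 collagens called lower and 9 that were not called (rows), in the 10 libraries (columns, KI for *Zfp36*ΔARE). The 15 upper rows are blue in nearly all *Zfp36*ΔARE columns, and *Col1a1*, *Col1a2* and *Col3a1* are darkest in KI 1.

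Hair content and the libraries that carried little of it moved with the collagen result. All 8 hair shaft keratins lay above every WT library in each *Zfp36*ΔARE library, with log2 fold changes of 2.17 to 2.41, though 0 of 8 passed the adjusted test, the smallest adjusted p being 0.063. Without WT replicates 1 and 3, the WT libraries lowest in hair keratins, 10 collagens were lower and 0 were higher, and the number lower by over 2-fold fell from 6 to 2. In that fit 2504 of 15724 genes were called in either direction, against 5335 of 15543 with every library. With the hair shaft score, the mean log2(CPM + 1) of these keratins, as a covariate, 0 collagens and 39 of 15543 genes were called. In that edgeR fit 13 collagens were lower at an unadjusted p below 0.05. The share of all genes by this rule was not counted. The median log2 fold change of the 15 lower collagens was -0.62, against -0.95 without this covariate. All 15 estimates stayed negative, but these genes were chosen as lower in the same libraries. Without WT replicate 1 alone, 13 collagens were lower, 3 of them by over 2-fold, and 3454 of 15606 genes were called.

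**Figure D5:**
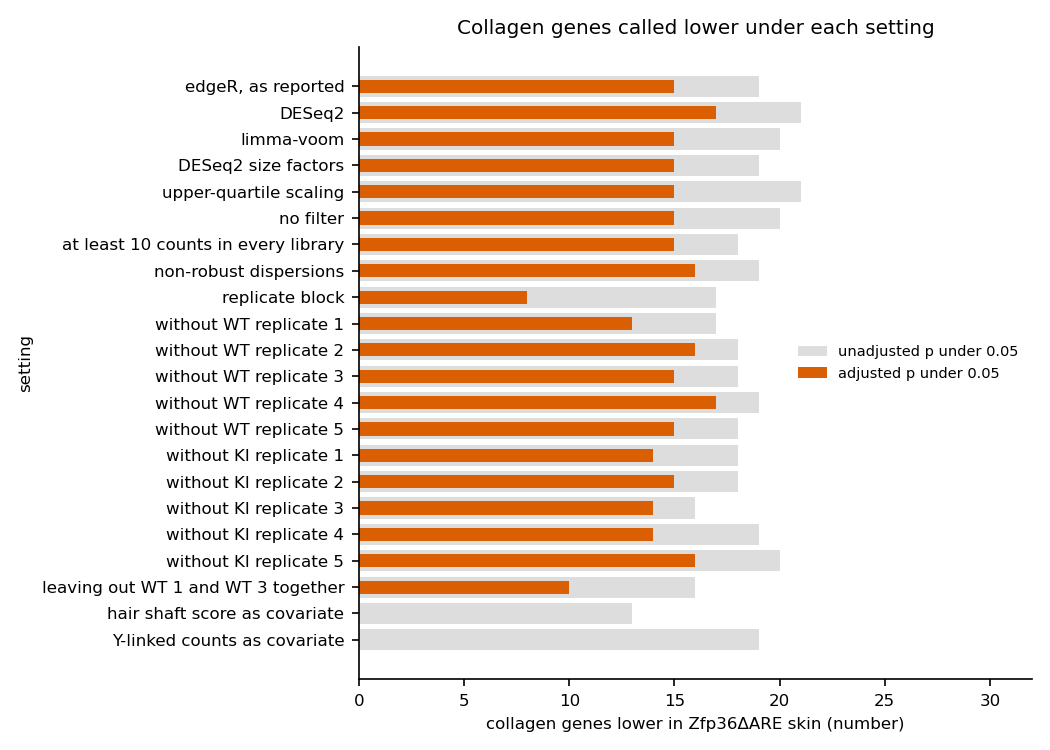
Number of collagen genes called lower in *Zfp36*ΔARE skin (horizontal axis) under each setting, by an adjusted p below 0.05 (orange) and by an unadjusted p below 0.05 (grey). The number called was 15 as reported and 13 to 17 when any 1 library was left out, and it was 0 when the hair shaft score or the presence of Y-linked counts was a covariate. The share of all genes with an unadjusted p below 0.05 was not counted, so the grey bars have no share beside them.

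Genes that make, process and read collagen were described by counts over lists. Of 20 modification and folding enzymes 10 were lower and 0 higher (median log2 fold change -0.42), against 19.1% and 15.3% of all genes. *Serpinh1*, the collagen-specific chaperone, was lower at a log2 fold change of -0.78 (SE 0.14, adjusted p = 0.0065), with 7366 to 12487 normalized counts in WT and 4736 to 5960 in *Zfp36*ΔARE skin. *Colgalt1*, which glycosylates hydroxylysine, was lower at -0.40 (adjusted p = 0.0065). General folding factors of the list were not called, *P4hb* at -0.04 and *Ppib* at 0.05.

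Of 13 tested processing and crosslinking genes 8 were lower and 0 higher (median -0.68), against 19.1% and 15.3% of all genes. *Loxl1*, a lysyl oxidase best known for elastic fibers, showed the largest of these decreases, at -1.43 on the log2 scale (SE 0.19, adjusted p = 0.0040), and *Loxl3* was lower at -0.81. *Lox* itself, the main crosslinking enzyme of fibrillar collagen, was not called (-0.23, adjusted p = 0.44). Neither were the procollagen proteinases *Bmp1* (-0.13) and *Adamts2* (-0.27), nor *Sparc*, a collagen-binding matricellular protein (-0.01). *Sparc* was lowest in *Zfp36*ΔARE replicate 1, at 17638 normalized counts against 27629 or more in every WT library.

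Small leucine-rich proteoglycans, which coat fibrils, were lower in 5 of 10 and higher in 0 (median -0.52), against 19.1% and 15.3% of all genes. Among the lower were *Dcn* (-0.58, adjusted p = 0.023), *Bgn* (-0.46, adjusted p = 0.015) and *Lum* (-0.78, adjusted p = 0.018). Collagen receptors were lower in 6 and higher in 1 of 11 (median -0.34), against 19.1% and 15.3% of all genes. *Itgb1*, the shared subunit of the collagen-binding integrins, was lower at -0.34 (adjusted p = 0.0099) and *Itga2* at -0.64 (adjusted p = 0.0066). *Ddr1* (0.19) and *Adgrg1* (0.40) were not called, and *Adgrg6*, a receptor of type IV collagen, was higher (0.21, adjusted p = 0.032).

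Other basement membrane components were lower in 8 of 15 and higher in 0 (median -0.45), against 19.1% and 15.3% of all genes. *Nid2*, one of the nidogens that bridge laminin and type IV networks, was lower at -0.82 (adjusted p = 0.0045), and *Lama4*, the laminin chain of vessels, at -1.03 (adjusted p = 0.0053). *Hspg2*, which encodes perlecan, was lower at -0.52. *Lama5* (0.25) and *Agrn* (0.13) were not called. Without WT replicates 1 and 3 the lower genes numbered 6 modification enzymes, 7 processing genes, 1 proteoglycan, 2 receptors and 8 basement membrane components, and *Adgrg6* was not called. In that fit 2504 of all 15724 genes were called, against 5335 of 15543 with every library. With the hair score or the Y-linked counts as a covariate 0 genes of these lists were called, where 39 and 0 of all 15543 genes were.

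Per length, the order of the collagens was led by the same 3 fibrillar chains in both genotypes. In CPM per kilobase of gene model, the mean level in WT was 642 for *Col3a1*, 496 for *Col1a2* and 362 for *Col1a1*, and in *Zfp36*ΔARE skin it was 427, 448 and 312. *Col17a1* came next with 146 and 120. *Col6a1* (139 in WT and 65.8 in *Zfp36*ΔARE skin), *Col6a2* (113 and 49.6) and *Col4a1* (84.7 and 57.6) followed in WT. *Col6a3*, a long transcript, had a mean level of 53.7 in WT and 21.6 in *Zfp36*ΔARE skin on this scale. Within every WT library *Col3a1* stood above *Col1a2* on this scale, while in *Zfp36*ΔARE skin their order differed between libraries.

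Collagens made up 0.975% to 1.93% of all counts in WT and 0.610% to 1.29% in *Zfp36*ΔARE libraries, and the 2 ranges overlapped. *Col1a1*, *Col1a2* and *Col3a1* together held 51.7% to 64.1% of collagen counts in WT. In *Zfp36*ΔARE skin they held 44.4% in replicate 1 and 63.7% to 70.4% in replicates 2 to 5. Type VI held 10.4% to 12.5% of collagen counts in WT, 9.96% in *Zfp36*ΔARE replicate 1 and 5.85% to 7.46% in replicates 2 to 5, so that on this scale no *Zfp36*ΔARE library reached the WT range.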

How the data were processed

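The authors sequenced RNA of 10 skin samples, discarded low-quality reads (mean quality under 20). Alignment was to mm10 by STAR 2.5.2b, and featureCounts (Subread 1.5.0-p1) assigned reads to genes. The deposited table holds raw counts per gene. Strand and multi-gene settings are not given in the sources used here. The 2 rows without a gene name (7.38e-05% of counts) were left out.

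Libraries were grouped by the labelled genotype, 5 against 5. Low genes were removed with filterByExpr, and 15543 genes were tested with edgeR 4.0.16 (R 4.3.3), using TMM factors and the robust two-sided quasi-likelihood test with Benjamini-Hochberg adjustment over all of them. A call is an adjusted p below 0.05. Log2 ratios of chain pairs used a pseudocount of 0.5 normalized counts. On simulated counts of 15598 genes for 5 against 5 libraries, 62% of genes changed 1.5-fold and 80% of those changed 2-fold were recovered. False calls were 6.1% of calls. Only 50 genes were changed at each fold of 1.5, 2, 3 and 4, while 5335 genes were called in the data. The simulation held no differences in hair or Y-linked transcripts, so its rates may not carry over. DESeq2 1.42.0, limma-voom (limma 3.58.1), other scalings, filters, covariates and left-out libraries were alternatives.

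The members and lists were chosen with earlier results of these data known. The text gives values per library for the 3 most abundant members of each class (all members of smaller classes), members called lower by over 2-fold and the 3 with the most positive fold change. From pathway lists it names the 3 genes with most counts and the 2 with the smallest p, from marker lists the first 2; a further marker list is not reported here. *Adgrg6*, *Lox*, *Itga6*, *Itgb4* and *Dst*, and the values of other collagens where given, were chosen after their values were seen. Each library is 1 mouse.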

Additional observations from a re-analysis of the deposited data

Results flagged for a closer look

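Among 118 groups of 5 libraries, 1 had a library far from the rest by Dixon's test, where chance gives about 5.9. It was *Col6a5*, an alternative chain of type VI, in *Zfp36*ΔARE skin. *Zfp36*ΔARE replicate 1 had 529 normalized counts of it, the next library had 200.3 and the lowest 107. This is the knock-in library without Y-linked counts.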

How the results depend on the processing

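The 15 lower collagens had a negative estimate in each alternative fit that tested them (*Col25a1* was not tested where 10 counts in every library were required). These genes were chosen as lower in the same libraries, so their signs are not an independent check. The number of lower collagens was 15 to 17 with other tests, scalings and filters, 13 to 17 without 1 library and 10 without WT replicates 1 and 3. The fit without WT replicates 1 and 3 called 2504 of all genes. The number lower by over 2-fold was 3 to 9 without 1 library (3 without WT replicate 1) and 2 without WT replicates 1 and 3. With the hair shaft score or the Y-linked counts as a covariate both numbers were 0, while 39 and 0 of all genes were called, against 5335. With the replicate block 8 collagens were lower and 0 higher, and 2740 of all genes were called, and 4 modification enzymes, 3 receptors and 0 proteoglycans were lower. Libraries of equal number did not deviate together, as their deviations correlated between -0.19 and 0.09. Whether mice of equal number were matched is not given in the labels. The number higher, 1, was 0 to 1 without 1 library, and 0 with upper-quartile scaling, without WT replicates 1 and 3, and with either covariate.

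With the Y-linked counts the median log2 fold change was -1.49 for fibrillar, -0.56 for type IV and -0.094 for FACIT genes, and *Zfp36* was at 1.43 with an adjusted p of 0.18 by edgeR. With the hair score the median was -0.51 for FACIT and -0.32 for type VI genes. Without 1 library, log2 ratios to *Col1a1* differed between the genotypes by -0.39 to 0.19 for *Col17a1*, -1.06 to -0.615 for *Col6a1* and -0.997 to -0.49 for *Col14a1*, each lowest without *Zfp36*ΔARE replicate 1.

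Signs turned only in collagens that were not called. Without 1 library, log2 fold changes were -0.17 to 0.30 for *Col4a3*, -0.12 to 0.22 for *Col4a4*, -0.031 to 0.14 for *Col16a1*, -0.39 to 0.034 for *Col26a1*, -0.30 to 0.065 for *Col1a2* and -0.21 to 0.28 for *Col13a1*. Without WT replicates 1 and 3 they were -0.072 for *Col9a3*, -0.062 for *Col16a1*, 0.14 for *Col1a2*, 0.079 for *Col1a1* and -0.024 for *Col18a1*. With the hair score they were -0.46 for *Col9a3*, -0.18 for *Col8a2*, -0.21 for *Col16a1*, 0.26 for *Col1a2*, 0.18 for *Col1a1*, -0.21 for *Col18a1* and 0.33 for *Col10a1*. With the Y-linked counts they were -0.54 for *Col4a3*, -0.58 for *Col4a4*, 0.058 for *Col12a1* and 0.21 for *Col4a6*. *Col4a4* was at -0.017 with upper-quartile scaling, and *Col13a1* at -0.011 with limma-voom and -0.056 with the replicate block. The cause of these shifts was not tested. *Col25a1* and *Col22a1* rest on few counts, so their fold changes are imprecise.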

Other observations

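In the 250 bases upstream of the annotated start (RefSeq, GRCm38.p6, 38 windows of 35 collagen genes, both strands searched), the GC box core GGGCGG was found in 57.9% of collagen windows and in 32.7% of all 32851 windows. CCAAT was found in 34.2% and 33.8%, and TATAA in 18.4% and 22.8%. The windows at the annotated starts of *Col6a2* share bases, so they are not independent, and promoter activity was not measured here.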
